A study of Homo sapiens with 12 samples.

Results

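Mitochondrial RNA of PDE12+/+ and PDE12-/- human cells was sequenced, and the counts of all 35 mitochondrial genes in those tables are described here by gene, by strand and by position along the genome. The 6 RNA-seq samples, out of 12 samples in the series, were taken by their labels, 3 for each genotype. Both genotypes are HEK293T cells of the Flp-In T-REx type, an established line that goes back to the kidney of a human embryo. In PDE12-/- cells the gene for the deadenylase PDE12 was disrupted in its first exon with zinc finger nucleases. The knockout line is 1 clone, so a difference between the genotypes and a difference between that clone and the parental line cannot be told apart. No agent or time distinguishes the groups, and the samples are numbered repeats 1 to 3 of each genotype. Nothing in the labels says that the repeats came from separate cultures, so the p-values measure the spread between these samples, which may be technical. PDE12 is a nuclear gene and its transcript was not analysed here, so the knockout itself could not be checked in these counts.

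Human mitochondrial DNA is transcribed from both strands as long polycistronic RNAs. Transfer RNA genes lie between most of the protein-coding genes, and cutting out the mt-tRNAs releases the mt-mRNAs, which mtPAP then polyadenylates. The ND6 mRNA is an exception and has no poly(A) tail. PDE12 removes adenosines from the 3' ends of mitochondrial RNAs. The mt-mRNAs encode subunits of complex I (ND1 to ND6 and ND4L), complex III (CYB), complex IV (CO1, CO2 and CO3, called COI to COIII in much of the literature) and ATP synthase (ATP6 and ATP8). All are read from the + strand of the reference except MT-ND6, which lies on the opposite strand with 8 of the 22 mt-tRNA genes.

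Where genes overlap, the counts of neighbours cannot be fully kept apart, so the borders on which several ratios turn are shown from the + strand of the GRCh38 mitochondrial genome (16569 nt). MT-ATP8 and MT-ATP6 share 46 nt (chrM:8527-8572) and MT-ND4L and MT-ND4 share 7 nt (chrM:10760-10766), each pair being known as a bicistronic mRNA. The shared bases are in capitals, with 10 nt on either side, and the capitals open with the ATG of the downstream gene. Between MT-TN and MT-TC, which hold the most forward counts of any mt-tRNA genes, the annotation leaves 31 nt, known as the origin of replication of the light strand. These bases are the capitals in the last sequence (chrM:5657-5826), which starts and ends with the first and last bases of those genes.
MT-ATP8/MT-ATP6, chrM:8517-8582: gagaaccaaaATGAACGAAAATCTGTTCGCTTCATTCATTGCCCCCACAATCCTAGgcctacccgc
MT-ND4L/MT-ND4, chrM:10750-10776: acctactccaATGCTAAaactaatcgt
MT-TN to MT-TC, chrM:5657-5826: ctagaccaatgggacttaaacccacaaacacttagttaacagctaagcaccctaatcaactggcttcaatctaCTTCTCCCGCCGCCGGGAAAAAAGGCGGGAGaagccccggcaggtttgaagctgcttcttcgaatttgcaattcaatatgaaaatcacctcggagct

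Counts per sample summed to between 36338 and 104708. Both ends of this range were PDE12+/+ samples, replicate 1 and replicate 2. These sums hold mitochondrial genes without the mt-rRNAs, so every level is a share of mitochondrial RNA, and fewer copies per cell cannot be told apart from a gain elsewhere. The forward and reverse columns were read as the + and - strands of the genome. MT-ND6 had 1.69, 2.56 and 1.48 reverse counts per forward count in PDE12+/+ and 2.11, 1.40 and 1.46 in PDE12-/-, as a gene of the - strand would. The 8 mt-tRNA genes of the - strand did not follow it, with 16543 forward and 717 reverse counts over the 6 samples. A reading of the columns as sense and antisense of each gene is therefore possible, and it would alter the orientation of MT-ND6 and of those 8 mt-tRNA genes and leave the other 26 genes as they are.

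The 13 mt-mRNA genes, counted over both strands, held between 94.1% and 96.7% of the counts in every sample. Read as genome strands, between 4.32% and 10.1% of the counts at these genes were antisense. In the test of genotype with edgeR's quasi-likelihood method, 0 of 70 features, each a gene on 1 strand, passed an adjusted p-value of 0.05 (0% of features), while 5 had an unadjusted p below 0.05. DESeq2 called 0 features as well, with 4 below that unadjusted threshold. The edgeR fit on genotype alone used 1 dispersion common to all features. Its SEs were nearly equal over the sense mt-mRNAs, from 0.335 (MT-ND4) to 0.348 (MT-ATP8). They reflect a pooled spread more than that of each gene. With the replicate number as a block, edgeR called 4 features (5.71%), which were sense MT-ND2, MT-CO1 and MT-CO2 and the forward counts at MT-TN. The labels do not say what a number stands for, so the block rests on a pairing inferred from these same samples. Deviations from the genotype means correlated most between PDE12+/+ replicate 3 and PDE12-/- replicate 2 (r = 0.654). Same-numbered samples had r = 0.615, 0.252 and 0.348. Each blocked p-value below carries that limit. Scaling to library totals in place of TMM called 2 features (2.86%), MT-ND2 and MT-ATP6, and these with MT-CYB made 3 (4.29%) when the block was added, a setting chosen after seeing the data. Without the block, TMM over sense mt-mRNAs alone called 2 features (2.86%), sense MT-CO1 and MT-CO2. The choice of scaling moved the median log2 fold change of the 13 sense mt-mRNAs from 0.22 with TMM to 0.44 with totals, so single fold changes are best read against that median or as ratios within a sample.

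The mRNAs of complex IV dominated every sample and took a smaller share in PDE12-/-. MT-CO1 (chrM:5904-7445), whose product is the catalytic core subunit of cytochrome c oxidase, made up 37.9%, 38.4% and 36.9% of counts in PDE12+/+ replicates 1 to 3 and 26.0%, 33.1% and 31.8% in PDE12-/- replicates 1 to 3. All 3 knockout samples lay below all 3 wild-type samples, with PDE12-/- replicate 1 the lowest. In edgeR the log2 fold change of MT-CO1 was -0.52 (SE 0.34, adjusted p = 0.726). With the replicate block, which rests on the inferred pairing, it fell by 0.56 on the log2 scale (edgeR adjusted p = 5.49e-05). Without the block the value was -0.29 when PDE12-/- replicate 1 was left out and -0.31 without PDE12+/+ replicate 3. Also without the block, it was -0.62 with TMM over sense mt-mRNAs alone (edgeR adjusted p = 4.14e-05). With library totals it was -0.32 (edgeR adjusted p = 0.0635).

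MT-CO2 (chrM:7586-8269), the subunit that takes electrons from cytochrome c, followed the same order of groups. It made up 12.6%, 11.8% and 12.4% of counts in PDE12+/+ and 8.54%, 10.4% and 9.41% in PDE12-/-. The groups did not overlap, the log2 fold change was -0.57 (SE 0.34, edgeR adjusted p = 0.726), and with the replicate block it fell by 0.62 on the log2 scale (adjusted p = 0.00307). Leaving out PDE12+/+ replicate 3 or PDE12-/- replicate 1 gave unblocked values of -0.34 and -0.37. Unblocked TMM over sense mt-mRNAs alone gave -0.68 (edgeR adjusted p = 0.00379), and library totals gave -0.37 (adjusted p = 0.187). MT-CO3 (chrM:9207-9990), the third core subunit of the enzyme, did not share this pattern, with 23.4%, 26.1% and 21.5% in PDE12+/+ and 28.3%, 25.1% and 24.0% in PDE12-/-. Its groups overlapped, and its log2 fold change of -0.13 (edgeR adjusted p = 0.991) turned to 0.12 with library totals.

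Among complex I mRNAs, MT-ND2 (chrM:4470-5511), a membrane subunit of the proton-pumping arm, differed most. It made up 0.619%, 0.592% and 0.922% of counts in PDE12+/+ and 1.69%, 1.36% and 1.58% in PDE12-/-. The lowest knockout value was above the highest wild-type value. The log2 fold change was 0.87 (SE 0.34, edgeR adjusted p = 0.285), and it rose by 0.90 with the replicate block (adjusted p = 0.0140) and by 1.12 with library totals (adjusted p = 0.0291). Without PDE12+/+ replicate 3 the TMM value was 1.31. MT-ND1 (chrM:3307-4262), which lies where the membrane arm meets the ubiquinone site, made up 0.916%, 1.07% and 1.18% in PDE12+/+ and 2.04%, 1.58% and 1.42% in PDE12-/-, again without overlap, with a log2 fold change of 0.40 (SE 0.34, edgeR adjusted p = 0.784).

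The complex I genes further along the + strand lay closer together between genotypes. MT-ND5 (chrM:12337-14148), the longest mt-mRNA gene, took 1.36%, 1.52% and 2.17% in PDE12+/+ and 2.30%, 2.17% and 2.38% in PDE12-/-, with the highest wild-type and the lowest knockout sample nearly equal. MT-ND4 (chrM:10760-12137) took 2.48%, 2.61% and 4.00% in PDE12+/+ and 3.54%, 3.97% and 4.80% in PDE12-/-. MT-ND4L (chrM:10470-10766) took 0.696%, 0.816% and 1.23% against 1.05%, 1.48% and 1.60%. For both, PDE12+/+ replicate 3 lay inside the knockout range. MT-ND3 (chrM:10059-10404) took 2.43%, 1.95% and 2.01% in PDE12+/+ and 3.29%, 2.69% and 2.03% in PDE12-/-, with PDE12-/- replicate 3 inside the wild-type range. MT-ND6 on the reverse strand (chrM:14149-14673) took 0.372%, 0.510% and 0.386% against 0.532%, 0.394% and 0.423%, without a separation. Of the 6 complex I mRNAs of the + strand, 0 passed the edgeR test, 6 had a positive log2 fold change with TMM and with totals, and 5 did when the scaling used sense mt-mRNAs alone. Their median log2 fold change with TMM was 0.30, close to the median of 0.22 over all sense mt-mRNAs in the same fit. Over all 70 features the median was -0.02.

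The ATP synthase and complex III mRNAs also took larger shares in PDE12-/-. MT-ATP6 (chrM:8527-9207), the subunit that forms the proton channel with the c-ring, made up 2.53%, 3.38% and 3.76% of counts in PDE12+/+ and 5.02%, 5.37% and 6.31% in PDE12-/-. MT-ATP8 (chrM:8366-8572), a short membrane subunit, made up 0.270%, 0.352% and 0.264% against 0.546%, 0.561% and 0.423%. In neither gene did the groups overlap. The log2 fold change was 0.54 for each (edgeR adjusted p = 0.726), and MT-ATP6 rose by 0.79 with library totals (adjusted p = 0.0291). With the replicate block the adjusted p of MT-ATP6 was 0.0630. The TMM value of MT-ATP6 moved to 0.31 without PDE12+/+ replicate 1 and 0.90 without PDE12+/+ replicate 3. That of MT-ATP8 moved to 0.84 without PDE12+/+ replicate 2 and 0.26 without PDE12-/- replicate 2. MT-CYB (chrM:14747-15887), which encodes cytochrome b, made up 1.95%, 2.51% and 3.26% in PDE12+/+ and 3.68%, 4.33% and 4.24% in PDE12-/-, a log2 fold change of 0.44 (SE 0.34, edgeR adjusted p = 0.784). Its value was 0.19 and 0.87 without PDE12+/+ replicates 1 and 3 and 0.21 without PDE12-/- replicate 2, so its size rests on single samples.

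Counted over the 13 sense mt-mRNAs, the shares of the genotypes did not overlap for 8 genes, 6 higher and 2 lower in PDE12-/-. MT-ND5 was the closest of them, at 2.17% in both PDE12+/+ replicate 3 and PDE12-/- replicate 2 after rounding. As a share of sense mt-mRNA counts its groups overlapped. Over all 70 features the shares did not overlap for 14 (20%), 12 higher (17.1%) and 2 lower (2.86%). With 3 samples against 3, the smallest p-value an exact permutation test can give is 0.1, which each of these 8 genes reached (two-sided).

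**Figure D1:**
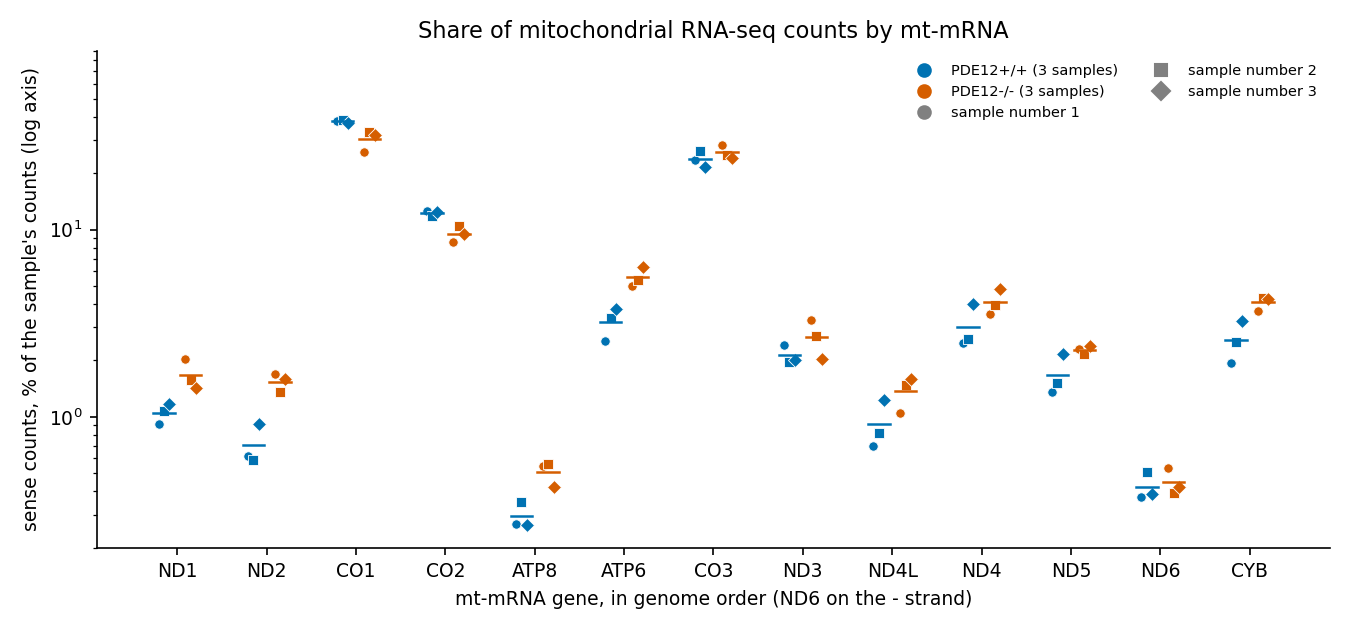
Sense counts of each mt-mRNA as a percentage of a sample's counts (log axis), in gene order along the genome, with 1 point per sample and a bar at the mean of each genotype. MT-CO1 and MT-CO2 sit lower in the 3 PDE12-/- samples (26.0% to 33.1% for MT-CO1), and MT-ND1, MT-ND2, MT-ATP8, MT-ATP6 and MT-CYB sit higher. At MT-ND5 the highest PDE12+/+ and the lowest PDE12-/- sample are nearly equal.

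**Figure D2:**
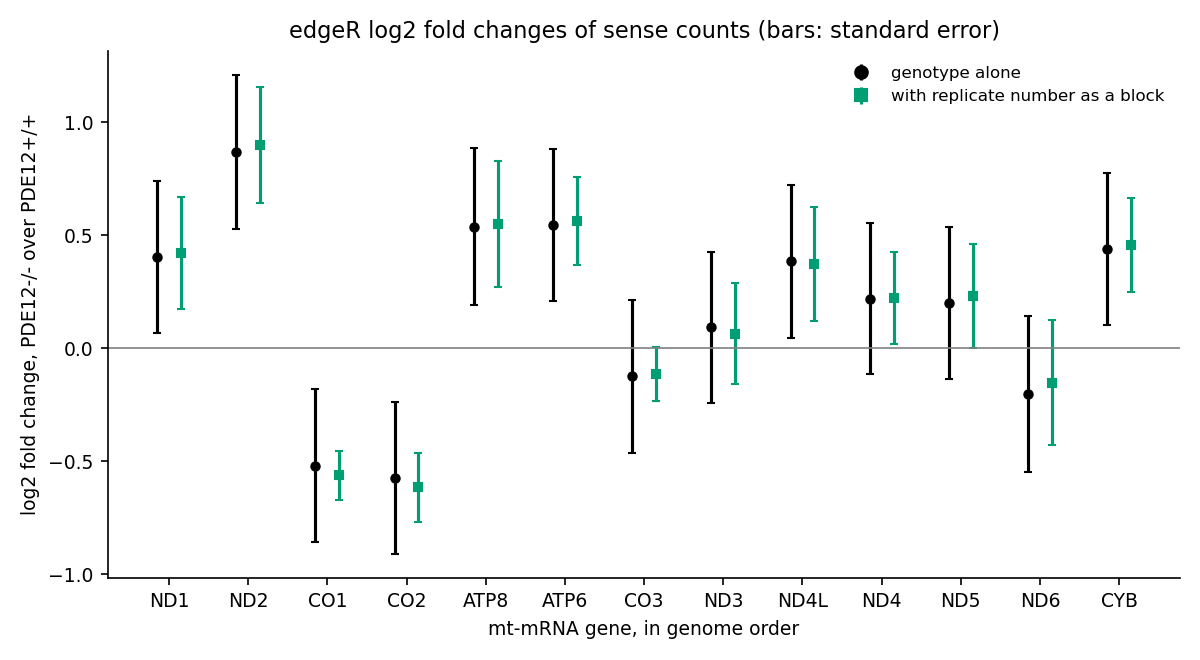
Log2 fold change of PDE12-/- over PDE12+/+ for the 13 sense mt-mRNAs in genome order, from edgeR on genotype alone and with the replicate block, with bars for the standard error. The values run from -0.57 at MT-CO2 to 0.87 at MT-ND2 on genotype alone, and the bars are shorter with the block.

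Grouped by complex, the mt-mRNAs divided their sense counts differently, with MT-CO3 apart from the other complex IV genes. Complex IV mRNAs held 84.4%, 83.3% and 78.7% of sense mt-mRNA counts in PDE12+/+ and 72.6%, 74.2% and 72.1% in PDE12-/-. The means were 82.1% ± 3.04 and 73.0% ± 1.07 (SD, n = 3 each), a difference of -9.16 percentage points (SE 1.86, exact permutation p = 0.1, the smallest possible). Complex I mRNAs of the + strand held 10.6% ± 1.89 and 15.2% ± 0.882, and ATP synthase mRNAs held 3.91% ± 0.653 and 6.76% ± 0.593 (SD, n = 3 each, exact permutation p = 0.1 for both). None of the 3 groups of genes had overlapping samples. These shares are parts of 1 total, so a smaller complex IV share raises the others. Within complex IV the mean share of MT-CO1 went from 42.1% to 33.6% and that of MT-CO2 from 13.7% to 10.5%. That of MT-CO3 went from 26.4% to 28.8%, with overlapping groups. Per kb of gene and per 1000000 counts, MT-CO3 was the most abundant mt-mRNA in both genotypes (302156 ± 29406 and 329313 ± 28723), followed by MT-CO1 (244732 ± 5165 and 196386 ± 24594).

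Ratios between neighbouring genes of the same sample do not depend on the scaling, and they compare genes in their order along the polycistron. Each ratio is one of counts per kb, with the downstream gene over the upstream gene. MT-CO1 was 41.4, 43.9 and 27.0 times as abundant as MT-ND2 in PDE12+/+ and 10.4, 16.5 and 13.6 times in PDE12-/-. Every knockout ratio lay well below every wild-type ratio. The log2 ratio differed by -1.47 (SE 0.29, n = 3 each), which is 0.362 of the wild-type ratio. In limma, fitted over the 12 neighbour ratios, its adjusted p was 0.00310.

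The step from MT-CO2 to MT-ATP8 moved the other way. MT-ATP8 was present at 0.0708, 0.0987 and 0.0703 of MT-CO2 in PDE12+/+ and at 0.211, 0.178 and 0.149 in PDE12-/-, a log2 difference of 1.17 (SE 0.22, 2.25-fold, limma adjusted p = 0.00310). The step from MT-ATP6 to MT-CO3, where the genes share 1 nt, ran from 8.04, 6.71 and 4.97 in PDE12+/+ to 4.91, 4.07 and 3.30 in PDE12-/-. In this ratio the groups came close without overlapping, with a log2 difference of -0.67 (SE 0.26), a limma adjusted p of 0.0778 and one of 0.00311 with the replicate block. MT-ND2 over MT-ND1 was 0.620, 0.508 and 0.719 in PDE12+/+ and 0.761, 0.789 and 1.02 in PDE12-/-, a log2 difference of 0.48 (SE 0.20, limma adjusted p = 0.118, and 0.0161 with the replicate block).

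These were the 4 of 12 neighbour ratios whose groups did not overlap (33.3%), and over all 78 pairs of mt-mRNAs the share was 43.6%. Neighbours were thus not apart more often than pairs of mt-mRNAs in general. In the exact permutation test each had p = 0.1, the smallest possible, and 0.3 after Benjamini-Hochberg adjustment over the 12 ratios.

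**Figure D3:**
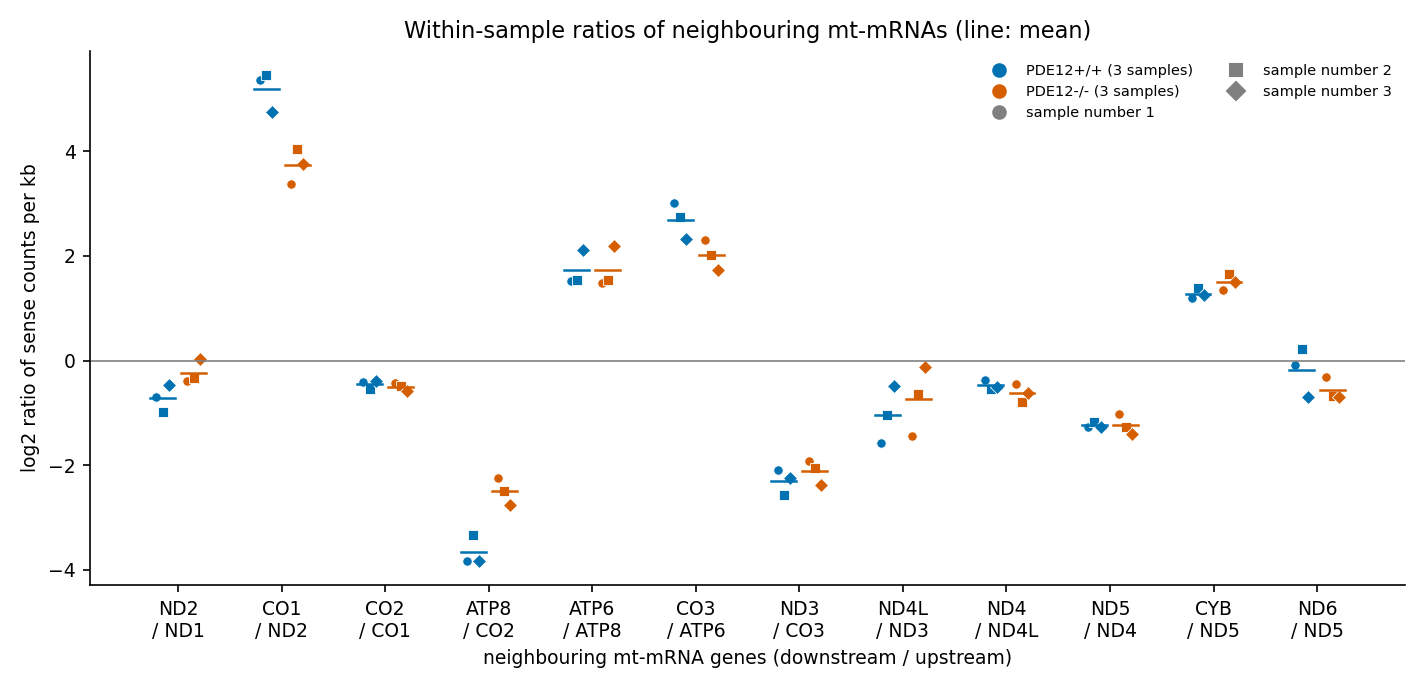
Log2 ratio of counts per kb for each pair of neighbouring mt-mRNAs, in genome order, with 1 point per sample and a bar at the mean of each genotype. The groups lie apart at MT-CO1/MT-ND2 (difference -1.47), MT-ATP8/MT-CO2 (1.17), MT-CO3/MT-ATP6 (-0.67) and MT-ND2/MT-ND1 (0.48), and overlap at the other 8 pairs.

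For the genes carried together on 1 mRNA the ratios of the genotypes overlapped. MT-ATP6 over MT-ATP8 was 2.85, 2.92 and 4.33 in PDE12+/+ and 2.79, 2.91 and 4.53 in PDE12-/-, and the log2 difference was 0.01 (SE 0.30). Here the samples with the same number resembled each other more than samples of the same genotype did. MT-ND4 over MT-ND4L was 0.768, 0.690 and 0.703 against 0.731, 0.580 and 0.647, a log2 difference of -0.15 (SE 0.11). How a read within the shared 46 nt or 7 nt was counted is not given in the sources used here, and the size of these ratios depends on it.

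MT-CO2 over MT-CO1, the pair with a block of 2 mt-tRNA genes between them, also overlapped, at 0.749, 0.690 and 0.759 in PDE12+/+ and 0.742, 0.710 and 0.667 in PDE12-/-. The log2 difference was -0.05 (SE 0.06, exact permutation p = 0.5). MT-ND5 over MT-ND4 differed by 0.01 (SE 0.12) and MT-CYB over MT-ND5 by 0.23 (SE 0.11). MT-ND6, transcribed from the other strand, differed from MT-ND5 by -0.38 (SE 0.30), with overlapping groups.

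Taken against each of the other 12 mt-mRNAs, MT-ND2 was higher in PDE12-/- without overlap in 10 ratios and lower in 0. MT-CO2 was lower in 10 ratios and MT-CO1 in 9, and neither was higher in any. Over all 78 pairs, 34 ratios (43.6%) were apart. The 12 ratios of a gene all contain its own 6 values, so they are not separate results. The most divergent pair was MT-CO2 and MT-ND2, at 31.0, 30.3 and 20.5 in PDE12+/+ and 7.71, 11.7 and 9.05 in PDE12-/-, a log2 difference of -1.52 (SE 0.26). MT-ATP6 over MT-CO2 differed by 1.18 (SE 0.22) and MT-CYB over MT-CO2 by 1.07 (SE 0.22). MT-ATP8 was higher in 4 ratios and MT-CYB in 2, MT-ATP6 was higher in 4 and lower in 1, and MT-ND1 was higher in 5 and lower in 1. MT-CO3 was higher in 2 and lower in 4, MT-ND6 was lower in 3, and MT-ND3, MT-ND4L, MT-ND4 and MT-ND5 had counts of 1 or 2 in each direction. For every gene other than MT-ND2, MT-CO2 and MT-CO1, the portion apart was near or below the 43.6% over all pairs.

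Position along the + strand was summarised by a ratio of the 4 genes at the 3' end (MT-ND4L, MT-ND4, MT-ND5 and MT-CYB) to the 4 at the 5' end (MT-CO1, MT-CO2, MT-ND1 and MT-ND2). Its log2 was -2.75, -2.51 and -2.00 in PDE12+/+ and -1.64, -1.63 and -1.43 in PDE12-/-, a difference of 0.86 (SE 0.23, exact permutation p = 0.1, the smallest possible). The mean position of the sense mt-mRNA counts moved from 5.36 ± 0.0613 kb to 5.63 ± 0.0409 kb from the start of MT-ND1 (SD, n = 3 each). Without MT-CO1, MT-CO2 and MT-CO3 the direction was reversed. The log2 ratio then differed by -0.28 (SE 0.24, exact permutation p = 0.5) and the mean position by -0.135 kb (exact permutation p = 0.1).

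The 3' end of the reading frame was examined because polyadenylation completes the stop codon of some mt-mRNAs. In the annotation MT-ND1 ends with TA, and MT-ND2, MT-CO3, MT-ND3, MT-ND4 and MT-CYB end with a single T after the last full codon. MT-ATP6 is annotated with a TAA whose last A is the 1 nt it shares with MT-CO3, so its released mRNA also depends on polyadenylation for the stop. These 7 genes had log2 fold changes from -0.13 to 0.87 with a median of 0.40. The 6 genes whose stop codon is encoded in full, MT-CO1 and MT-CO2 among them, ran from -0.57 to 0.54 with a median of -0.00071. MT-ATP8 and MT-ND4L are also among these 6, though they share an mRNA with MT-ATP6 and MT-ND4 of the first group. The groups are therefore not separate mRNAs. By the annotation alone, with MT-ATP6 among the encoded stops, the medians were 0.31 and 0.20. The ranges overlapped widely under either grouping, and MT-ATP6 alone sets much of the distance between the medians.

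Reverse counts made up 7.17%, 5.66% and 5.04% of counts in PDE12+/+ and 10.5%, 4.51% and 6.16% in PDE12-/-. The highest and the lowest sample were both knockouts, and the difference of 1.11 percentage points (SE 1.91, exact permutation p = 0.8) turned to -0.627 without PDE12-/- replicate 1. That sample carried the most reverse counts per kb at 10 of the 12 + strand mt-mRNA genes. Among the mt-mRNA genes, reverse counts per kb and per 1000000 counts were highest over MT-CYB (11217 ± 1497 in PDE12+/+ and 11994 ± 3931 in PDE12-/-), MT-ND5 (8072 ± 677 and 9811 ± 3761) and MT-ND6 (8050 ± 1448 and 8569 ± 1386). Among the same genes they were lowest over MT-ATP8 (926 ± 712 and 833 ± 601). None of these levels separated the genotypes.

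**Figure D4:**
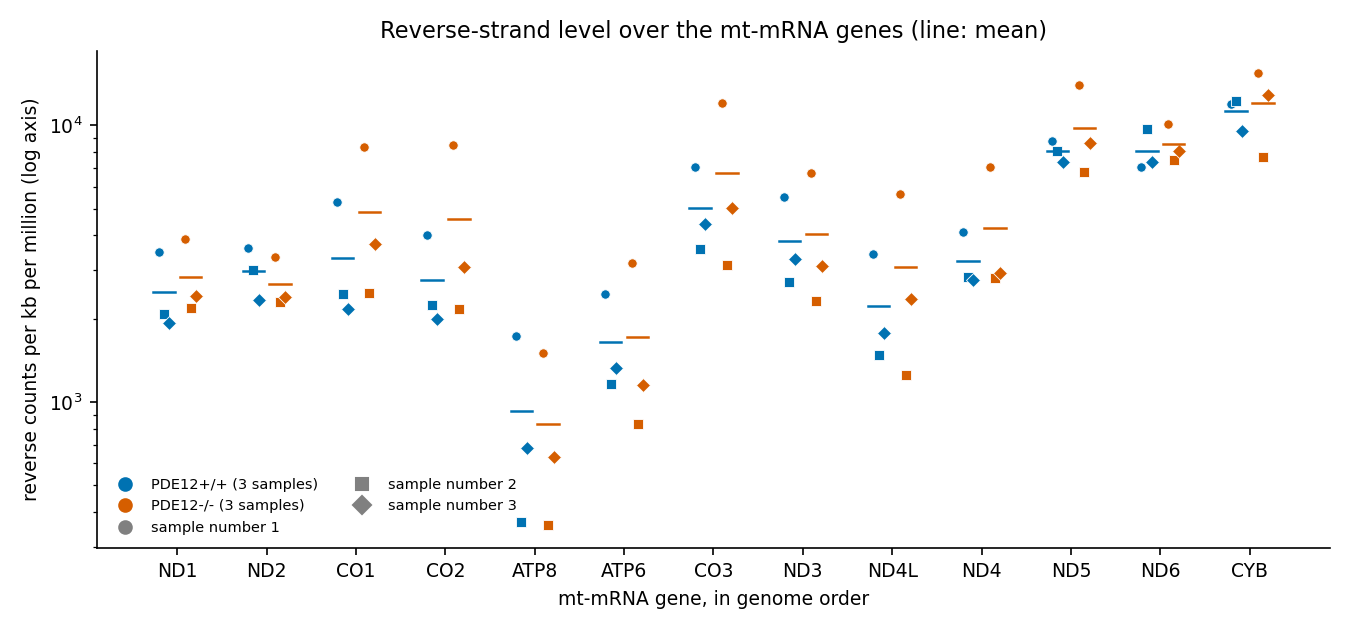
Reverse-strand counts per kb and per 1000000 counts at the 13 mt-mRNA genes (log axis) in genome order, with 1 point per sample and a bar at the mean of each genotype. The means are highest over MT-ND5, MT-ND6 and MT-CYB and lowest over MT-ATP8, and PDE12-/- replicate 1 lies above the other samples over most genes.

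Antisense counts relative to the sense counts of the same gene did not overlap between genotypes at MT-ND2. There were 60.4, 52.6 and 26.4 antisense counts per 100 sense counts in PDE12+/+ and 20.7, 17.6 and 15.7 in PDE12-/-, so that all wild-type values were higher (46.5 ± 17.8 against 18.0 ± 2.52, SD, n = 3 each, exact permutation p = 0.1, the smallest possible). The sense share of MT-ND2, the denominator, was itself higher in PDE12-/- without overlap. The antisense level of MT-ND2 overlapped, at 2971 ± 630 and 2676 ± 588 per kb and per 1000000 counts. At the other 12 mt-mRNAs the groups overlapped. A single gene of 13 apart is a smaller portion than the 20% of all 70 features whose shares were apart. MT-ND5 had the most antisense counts per sense count among + strand mt-mRNAs, with 117, 96.4 and 61.8 per 100 in PDE12+/+ and 110, 56.5 and 65.9 in PDE12-/-. At the abundant MT-CO1, MT-CO2 and MT-CO3 there were between 0.908 and 6.79 per 100 in every sample.

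Counts at mt-tRNA genes were few, and 5 genes held most of them. MT-TA, MT-TN, MT-TC, MT-TY and MT-TP, all on the - strand, held 16220 of the 17401 forward counts at mt-tRNA genes (93.2%). Together all mt-tRNA genes took 5.89%, 3.36% and 5.42% of counts in PDE12+/+ and 3.77%, 3.30% and 3.95% in PDE12-/-, and the groups overlapped. With MT-CO1 and MT-CO3 left out of the total, the - strand mt-tRNA genes took 14.9%, 8.57% and 12.2% in PDE12+/+ and 7.49%, 7.19% and 8.26% in PDE12-/-, without overlap (exact permutation p = 0.1, the smallest possible). The difference in the share of mt-mRNA genes then went from 1.22 to 4.30 percentage points. MT-CO1 was itself lower in PDE12-/- without overlap, so shares of a total without it also carry that difference. Against all counts, the - strand mt-tRNA genes took 5.55%, 2.98% and 5.01% in PDE12+/+ and 3.25%, 2.96% and 3.57% in PDE12-/-, which overlapped. On the reading as genome strands the forward counts at - strand mt-tRNA genes are antisense to the mt-tRNAs. On the other reading they are the mt-tRNAs themselves.

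Forward counts at MT-TN (chrM:5657-5729), the gene for the mt-tRNA of asparagine, were 1.27%, 0.689% and 1.16% in PDE12+/+ and 0.614%, 0.587% and 0.746% in PDE12-/-. PDE12+/+ replicate 2 lay within the knockout range. The log2 fold change was -0.86 (SE 0.34, edgeR adjusted p = 0.285), and with the replicate block they fell by 0.87 on the log2 scale (adjusted p = 0.0222). The unblocked value was -0.57 without PDE12+/+ replicate 3. MT-TC, for cysteine, had the most counts, with 1.71%, 0.887% and 1.74% in PDE12+/+ and 0.957%, 0.895% and 1.27% in PDE12-/-. Its log2 fold change was -0.67, that of MT-TA for alanine -0.70, that of MT-TY for tyrosine -0.66 and that of MT-TP for proline -0.55. None of these 4 passed the edgeR test in either fit.

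The 22 sense features of mt-tRNAs had 12 positive and 10 negative log2 fold changes with TMM. The 22 antisense features had 5 positive and 15 negative ones, and 2 had no counts in any sample. With library totals the numbers of positive values were 18 and 7. For 6 of the 44 mt-tRNA features (13.6%) the shares of the genotypes did not overlap, all higher in PDE12-/-, which is no larger a portion than the 17.1% higher over all 70 features. MT-TV forward counts were 1, 13 and 11 in PDE12+/+ and 16, 21 and 13 in PDE12-/-. MT-TK forward counts were 0, 0 and 1 against 5, 4 and 4, and MT-TD forward counts were 0, 0 and 0 against 3, 2 and 1. A count of 0 allows a share of up to 0.00826%, 0.00287% and 0.00352% in the 3 PDE12+/+ samples, which covers counting error alone. In PDE12-/- the shares were 0.00743%, 0.00495% and 0.00436% at MT-TK and 0.00446%, 0.00247% and 0.00109% at MT-TD. All lie below the limit for PDE12+/+ replicate 1, so the separation at MT-TK and MT-TD is not established. The rest of the 6 were the forward counts of MT-TI, MT-TQ and MT-TS1, at most 24 in any sample. None of the 6 passed the edgeR test.

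Set against the mt-mRNA upstream, the mt-tRNA block between MT-ND2 and MT-CO1 differed. Its 5 genes, MT-TW, MT-TA, MT-TN, MT-TC and MT-TY, had a log2 ratio of forward counts per kb to MT-ND2 of 4.42, 3.52 and 3.74 in PDE12+/+ and 2.01, 2.32 and 2.44 in PDE12-/-. The groups were well apart, with a difference of -1.64 (SE 0.30, exact permutation p = 0.1, adjusted 0.225 over 9 blocks). MT-ND2, the denominator, was itself higher in PDE12-/-. Set against MT-CO1 downstream, the forward counts per kb of MT-TA, MT-TN, MT-TC and MT-TY were 0.646, 0.326 and 0.616 in PDE12+/+ and 0.484, 0.376 and 0.499 in PDE12-/-, which overlapped (exact permutation p = 0.6).

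MT-TT and MT-TP relative to MT-CYB had a log2 ratio of 2.04, 0.964 and 1.03 in PDE12+/+ and 0.744, 0.173 and 0.0920 in PDE12-/-, a difference of -1.01 (SE 0.40, exact permutation p = 0.1, adjusted 0.225). MT-CYB, the denominator, was itself higher in PDE12-/- without overlap (2.57% against 4.08% of counts), and the forward shares at MT-TP overlapped. The blocks of MT-TS1 with MT-TD and of MT-TK were higher relative to MT-CO1 and MT-CO2 without overlap, on at most 6 counts per sample. MT-CO1 and MT-CO2, the denominators, were themselves lower in PDE12-/- without overlap. At the other 5 blocks the groups overlapped. The groups were thus apart at 4 of 9 blocks, while 43.6% of the 78 ratios between mt-mRNAs were apart.

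**Figure D5:**
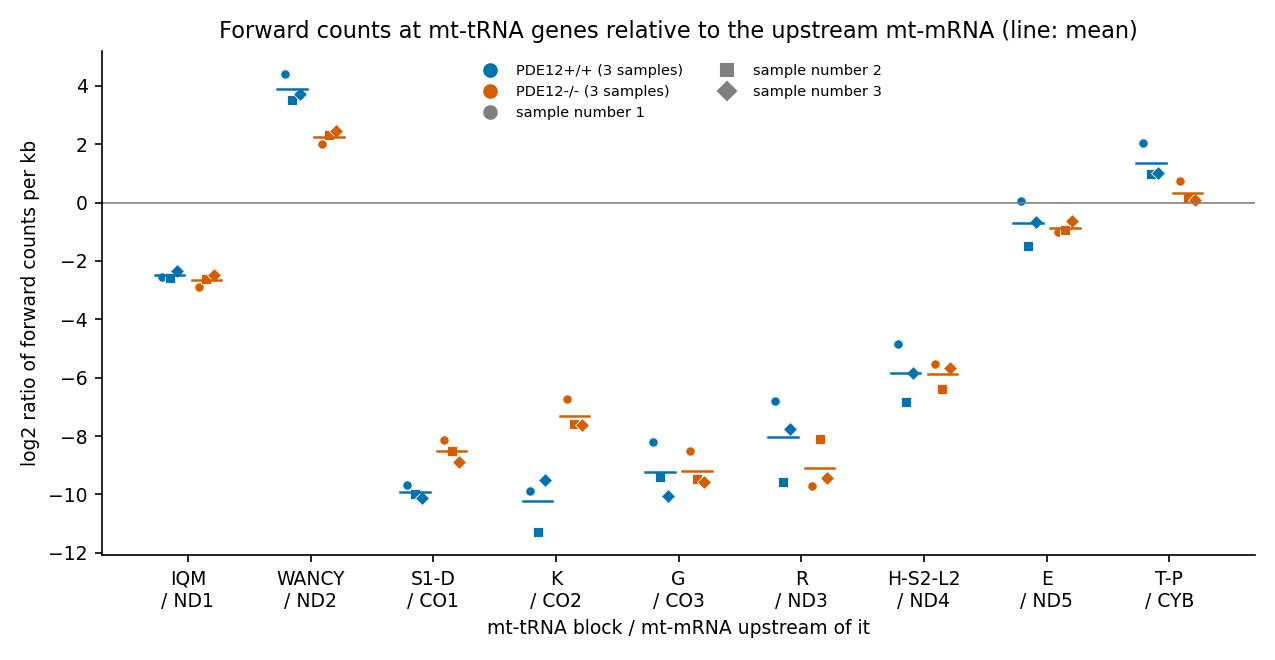
Log2 ratio of forward counts per kb of each mt-tRNA block (letters: the mt-tRNA genes in it, W for MT-TW and so on) to the mt-mRNA upstream of it, in genome order, with a pseudocount of 0.5, 1 point per sample and a bar at the mean of each genotype. The block of MT-TW to MT-TY lies lower in the 3 PDE12-/- samples (2.01 to 2.44) than in the 3 PDE12+/+ samples (3.52 to 4.42), and several other blocks rest on few counts.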

How the data were processed

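Mitochondria were isolated from PDE12+/+ and PDE12-/- HEK293T cells, RNA was depleted of rRNA with RiboZero Gold, and stranded TruSeq libraries were sequenced on a MiSeq. The authors trimmed reads with Trim Galore, mapped pairs whose mates were both longer than 20 nt to GRCh38 with Bowtie2, removed mt-rRNA reads and parted strands with Samtools, and deposited whole-number counts per gene and strand made with Rsubread. Versions of these tools are not given in the sources used here. The MPAT-Seq tables were not used here. All 35 gene identifiers matched GENCODE release 44, which gave strands, positions and sequences.

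Counts of the 70 features were fitted on genotype with edgeR 4.0.16 (R 4.3.3), the quasi-likelihood test, TMM scaling and 1 common dispersion, with a Benjamini-Hochberg threshold of 0.05. Ratios used counts per kb, with a pseudocount of 0.5 for mt-tRNA blocks, and were compared with two-sided exact permutation tests (SciPy 1.17.1) and with limma 3.58.1. Sampling errors follow from totals of 36338 to 104708 counts. DESeq2 1.42.0, library totals, TMM over sense mt-mRNAs, a minimum of 10 counts, other dispersions and leaving out each sample were alternatives. The scripts were tested on simulated counts. Samples with the same number deviated together from their genotype means (r = 0.615, 0.252 and 0.348 over 37 features), so the numbers were taken to pair the samples, although pairing replicates 2 and 3 crosswise gave a mean r of 0.369 against 0.405. All 13 mt-mRNAs are named, and mt-tRNAs where they were most abundant, passed the threshold or did not overlap. Genes and lists were chosen with earlier results of these data known.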

Additional observations from a re-analysis of the deposited data

How the results depend on the processing

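With 3 samples per genotype the exact tests cannot pass 0.05 and groups are too small to test for outlying samples, and the counts at most mt-tRNA genes are too few to show a difference. Of 364 values of 30 results under other settings, 310 kept their direction and side of the threshold or stayed within the replicate spread, and 22 changed direction. Called features numbered 4 (3 of them sense mt-mRNAs) with the replicate block, 2 (both sense mt-mRNAs) with library totals and 2 with TMM over sense mt-mRNAs alone, against 0 in the unblocked TMM fit. Chosen after seeing the data, library totals with the replicate block called 3, and TMM over sense mt-mRNAs with the block called 4, of which 3 were sense mt-mRNAs. Leaving out any 1 sample called 0. In 8 of 12 neighbour ratios, all 3 same-numbered pairs differed in the same direction, against 4 whose groups did not overlap. The log2 fold change of MT-CO3 turned positive with library totals (0.12), with a minimum of 10 counts (0.0502), and with totals and the replicate block (0.13), and ranged from -0.29 to 0.10 when 1 sample was left out, turning at PDE12+/+ replicate 2 (0.10) and replicate 3 (0.02). The difference in reverse share ranged from -0.627 to 2.39 percentage points with 1 sample left out, and was -0.0191 without both samples numbered 1, an alternative also added later. The difference in antisense share of all genes ranged from -1.74 to 1.21 (0.971 without PDE12+/+ replicate 1, 1.21 and 0.126 without PDE12-/- replicates 2 and 3), and was 1.11 with the columns read as sense and antisense, and that of mt-mRNA genes ranged from -0.565 (without PDE12-/- replicate 1) to 2.32. The position differences became -0.28 (log2 ratio) and -0.135 kb without the complex IV genes. The ratio of MT-ATP6 to MT-ATP8 ranged from -0.21 to 0.20 as a log2 difference and turned to -0.10, -0.08 and -0.21 without PDE12+/+ replicates 1 and 2 and PDE12-/- replicate 3. That of MT-ND5 to MT-ND4 turned to -0.0041, -0.0098 and -0.0966 without PDE12+/+ replicates 1 and 3 and PDE12-/- replicate 1, -0.11 without both samples numbered 1 and -0.0252 from group sums. Apart from the complex IV genes and the columns' reading, which act by construction, the causes were not tested.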
